A study of Homo sapiens with 8 samples.

Results

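K562 cells are a long-established human line that came from chronic myeloid leukaemia. Of the 8 RNA-seq libraries of the series, 4 came from wild-type K562 labelled Day 0 and without Lip-1, and these 4 untreated libraries were set against each other. Controls 1 and 4 have library names made of letters (A-C and A-C-1), and controls 2 and 3 have names made of digits (7_1 and 9_1), so the comparison was 2 letter-named against 2 digit-named libraries. The other 4 libraries, labelled Day 1, came from wild-type K562 given Lip-1 for 24 h. The dose was 10 µM in replicates 2 and 3 (digit names) and in replicate 4 (letter name), and 20 µM in replicate 1 (letter name). The labels leave the name Lip-1 unexplained; it usually stands for liproxstatin-1, which blocks lipid peroxidation. All groups were grown in the same medium, RPMI with fetal bovine serum. The labels give no meaning for the naming pattern, do not call it a batch, do not say whether controls received a vehicle, and do not say whether libraries came from separate cultures. Tests therefore measure only the spread between these libraries, which may be technical, and anything that differed along with the names cannot be told apart from them.

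K562 cells carry the BCR-ABL1 fusion kinase, which keeps STAT5 signalling active, and they lack working p53. They hold features of the erythroid, megakaryocytic and myeloid lineages at the same time, and agents such as hemin push them toward the red cell. As a red cell forms, GATA1 and its partners switch on globin genes, the heme enzyme ALAS2 and the proteins of the red cell membrane. K562 makes embryonic and fetal globins rather than the adult beta chain.

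Total deposited counts were 141307169 and 91814646 in the letter-named libraries (controls 1 and 4) and 81230924 and 79063246 in the digit-named ones (controls 2 and 3). Fewer genes were listed at 0 in the letter-named libraries, 4342 and 4663, than in the digit-named ones, 5823 and 5077. Across genes, log2 levels correlated at 0.980 within the letter-named pair, 0.977 within the digit-named pair and 0.961 to 0.967 between pairs. The median size of a gene's log2 difference was 0.176 and 0.153 within the pairs and 0.227 to 0.301 between them, so the 2 sets stood further apart than their members did. Both sets held K562 RNA by its markers, with HBZ and the fetal globins HBG1 and HBG2 in every library, while CD34 of stem cells and MPO of granulocytes were at 0 counts in all 4. A count of 0 allows at most 0.0379 CPM (counts per 1000000 of the library's total) at the smallest of these depths, for counting error only. This limit takes 1 count as 1 read and would be higher if 1 read gave several counts.

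In the letter-named libraries 510 genes were called higher and 176 lower than in the digit-named ones, of 13080 tested (edgeR's quasi-likelihood test with Benjamini-Hochberg adjustment, two-sided, adjusted p under 0.05). That is 5.24% of genes in either direction, 3.9% higher and 1.35% lower. The higher genes were the less abundant ones and moved further. Their median level was 15.8 CPM in the letter-named and 5.92 CPM in the digit-named libraries, their median log2 difference was 1.27, and 336 differed at least 2-fold and 59 at least 8-fold. The lower genes had median levels of 48.4 CPM against 73.4 CPM and a median log2 difference of -0.67, and 33 differed at least 2-fold and 1 at least 8-fold. The median over all genes tested was 0.01. Both letter-named libraries stood above both digit-named ones for 38.7% of genes tested and below both for 19.2%. These 2 shares use CPM without the TMM scaling of the test. The TMM factors were 1.04 and 1.02 in the letter-named and 0.989 and 0.954 in the digit-named libraries, so unscaled CPM leans toward letter above. With TMM scaling, 6281 of the genes not called had a positive and 6113 a negative difference.

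The number of calls depended on which library was present. Without control 2 or control 3 (digit-named), 204 and 219 genes were called, without control 1 (letter-named) 401, and without control 4 (letter-named) 1328. Of the 510 higher genes 120 were called in all 4 of these fits, and of the 176 lower genes 13. Genes said below to have held without any 1 library belong to that smaller group. Some of its members, such as FN1, CD24, ABCG2 and SLC30A10, carry no such mark. Controls 1 and 2 share a pattern of low values, with few genes at 2 or 3 counts, that controls 3 and 4 do not have. Because each naming set holds 1 library of each pattern, the pattern could be given a term of its own, and 649 genes were then called, 568 of them among the 686.

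**Figure D1:**
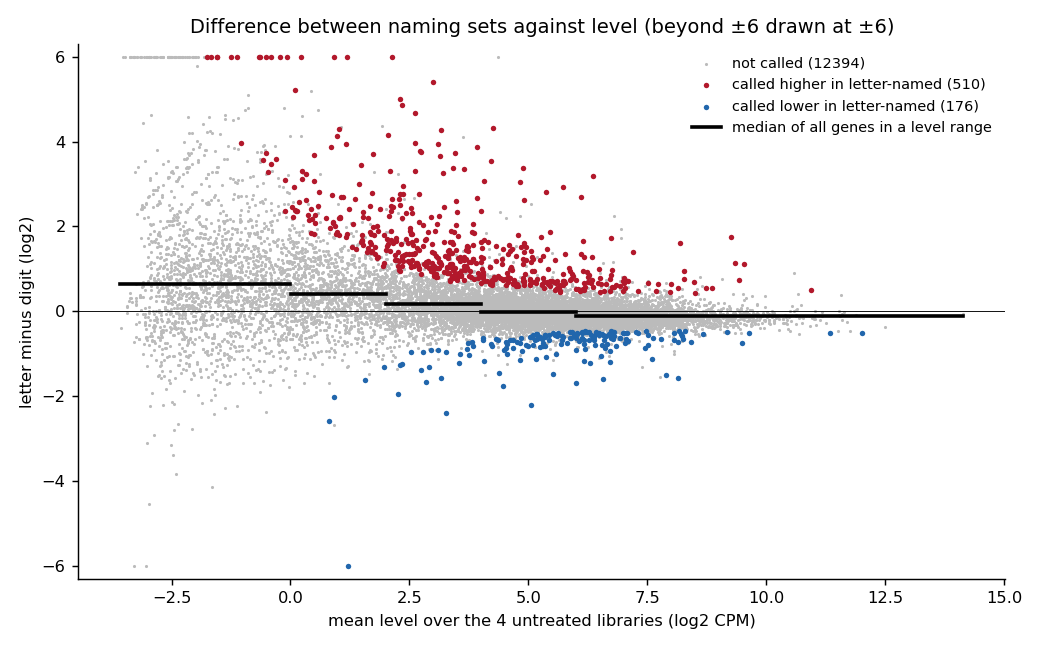
Each point is a gene tested in the 4 untreated libraries, with its mean level in log2 CPM on the x axis and its letter minus digit difference in log2 on the y axis; red marks the 510 genes called higher, blue the 176 called lower, and black lines the median of all genes in 5 level ranges. Medians run from 0.64 in the lowest range to -0.11 in the highest.

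The difference moved with level. Genes with a mean below 0 log2 CPM had a median difference of 0.64, and 20 of 1881 were called higher and 0 lower. Between 0 and 2 log2 CPM the median was 0.42, between 2 and 4 it was 0.17 with 208 higher and 20 lower calls of 2049, and between 4 and 6 it was -0.01. Above 6 log2 CPM the median was -0.11, with 66 higher and 86 lower calls of 3786. From the lowest range to the highest, 1.06%, 6.79%, 10.2%, 3.19% and 1.74% of genes were called higher, and 0%, 0.4%, 0.976%, 1.58% and 2.27% lower. The medians and calls of lists given below are to be set beside these. By the median level of their members, the globin, erythroid, heme, STAT5, G2 and mitosis, DNA replication, cholesterol, ribosomal protein and oxidative phosphorylation lists fall above 6 log2 CPM. The ATF4 and the CDK inhibitor lists fall between 4 and 6. The megakaryocyte, interferon, immediate early, NF-kB and integrin lists fall between 2 and 4, and the monocyte, fibroblast and histone lists between 0 and 2. Thinning the 4 libraries to the smallest total left 711 calls. This thinning took 1 count as 1 read, which low values spaced by about 4 leave unsure. Genes at 0 then numbered 4393 and 4683 in controls 1 and 4 and 5825 and 5077 in controls 2 and 3, near their numbers before. It therefore cannot show how genes of low level would differ at equal depth.

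The treated libraries carry the same naming pattern and were not used in testing these genes. The letter-named 10 µM library was set against the 2 digit-named 10 µM libraries in a fit over all 8 libraries, which takes this lone library to vary as the others do. There 165 of 14857 genes were called, 1.11% of those tested, 126 higher (0.848%) and 39 lower (0.263%). Of the 510 genes higher in untreated letter-named cells, 484 (94.9%) had the same direction at 10 µM, with a median log2 difference of 0.71, and 104 of them were called there in that direction and 3 in the other. Of the 176 lower genes, 166 (94.3%) had the same direction, with a median of -0.44, and 16 were called there in that direction and 1 in the other. Among genes not called in the untreated libraries the same direction held for 62.3% of those positive and 69.0% of those negative. The 124 genes called in both comparisons are 18.1% of the untreated calls and 75.2% of the 10 µM calls. The 2 differences share no library, but the spread used to test the 10 µM difference comes in part from the untreated libraries. A gene that varies little within the untreated sets is thus favoured in both tests, and the calls in both are not independent. The 10 µM libraries also have the replicate numbers of controls 2, 3 and 4. Same-numbered control and treated libraries deviated together from the mean of all controls or of all treated libraries (r of 0.252 to 0.452 across genes). Those means span both naming sets, so the naming difference is part of r, which cannot show pairing by number. Whether same-numbered libraries are paired was not tested, and the 10 µM values are not taken as independent of the untreated ones.

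**Figure D2:**
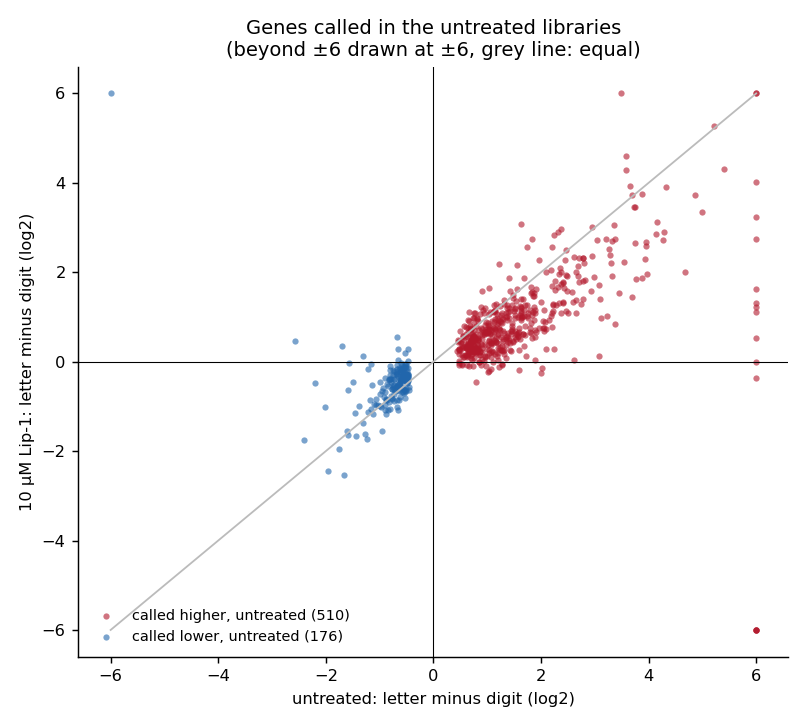
Each point is a gene called in the untreated comparison, with its untreated letter minus digit difference in log2 on the x axis and the same difference at 10 µM Lip-1 on the y axis; the grey line marks equal differences and values beyond 6 are drawn at 6. Most of the 510 red points lie in the upper right and most of the 176 blue points in the lower left, below the size of the untreated difference.

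Genes of the red cell differed in both directions. Of 10 globin genes 8 were tested, and 4 were called higher in the letter-named libraries and 0 lower, with a median of 0.89. HBZ, the embryonic zeta globin (chr16:152687-154503 in hg38), stood at 1115 and 834 CPM in controls 1 and 4 and at 228 and 319 CPM in controls 2 and 3. The sets did not overlap, with a log2 difference of 1.74 (SE 0.21, adjusted p = 0.008568 by edgeR). At 10 µM HBZ was 240 CPM in the letter-named library and 133 and 91.1 CPM in the digit-named ones, a log2 difference of 1.02 that did not pass the test (adjusted p = 0.1808). HBE1, the embryonic epsilon globin, was at 222 and 214 CPM against 97.0 and 60.6 CPM, a log2 difference of 1.39 (SE 0.20). The alpha globins HBA1 and HBA2, near-identical copies between which reads cannot be split with certainty, differed by 1.12 and 1.13. At 10 µM they differed by 1.11 and 1.14, and both were called there too. The fetal gamma globins HBG1 and HBG2, also near-identical, differed by 0.42 and 0.39 and did not pass the test (adjusted p = 0.1619 and 0.2556 by edgeR). The 4 called globin genes held without any 1 library.

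Among 36 tested erythroid genes outside the globins, 6 were called higher (16.7%) and 4 lower (11.1%), with a median of 0.17. SLC4A1, the band 3 anion exchanger of the red cell membrane, stood at 54.3 and 55.8 CPM in the letter-named and 5.61 and 4.39 CPM in the digit-named libraries, a log2 difference of 3.38 (SE 0.15, adjusted p = 0.0006488 by edgeR). CA1, an erythroid carbonic anhydrase, stood at 50.4 and 55.7 CPM against 7.66 and 8.60 CPM, a log2 difference of 2.62 (SE 0.15). GYPB, a glycophorin of the red cell surface with near-identical relatives, was at 38.5 and 35.8 CPM against 9.59 and 14.2 CPM. The other 3 higher genes were EPB42 (2.41) and DMTN (1.42), which sit in or under the red cell membrane, and the Rh blood group gene RHCE (1.83), which has a close copy in RHD. SLC4A1, CA1 and GYPB were called higher at 10 µM too, with log2 differences of 2.75, 2.35 and 2.17.

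Among the 4 lower erythroid genes were a receptor and transcription factors. CD36, a fatty acid and thrombospondin receptor of erythroid progenitors, platelets and macrophages, stood at 2.74 and 3.61 CPM in the letter-named against 18.1 and 13.5 CPM in the digit-named libraries, a log2 difference of -2.40 (SE 0.22, adjusted p = 0.003973 by edgeR). LMO2, the bridging factor of the GATA1 and TAL1 complex, was at 47.9 and 49.4 CPM against 109 and 105 CPM (log2 difference -1.22, SE 0.10). IKZF1, a lymphoid and erythroid transcription factor, differed by -0.52. CD36 and LMO2 were called lower at 10 µM as well, with log2 differences of -1.76 and -1.13. GATA1 was at 254 and 217 CPM against 185 and 194 CPM and the erythroid factor KLF1 at 176 and 153 CPM against 173 and 175 CPM, and neither passed the test (adjusted p = 0.2606 and 0.3817 by edgeR). SLC4A1, CA1, GYPB, CD36 and LMO2 held without any 1 library, while EPB42, RHCE, DMTN and IKZF1 lost their call without 1 or more of controls 1, 2 and 3. Summed over the erythroid list, levels were 5256 and 5219 CPM against 5140 and 4982 CPM.

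Of 14 genes of heme synthesis and mitochondrial iron import, 3 were called higher and 0 lower, and the median was -0.06. ALAS2, the erythroid 5-aminolevulinate synthase that opens the pathway (chrX:55009055-55031064), stood at 151 and 154 CPM in the letter-named libraries and 15.9 and 15.5 CPM in the digit-named ones. The log2 difference was 3.20 (SE 0.10, adjusted p = 0.0002151 by edgeR), and at 10 µM, with 107 CPM against 17.8 and 12.4 CPM, it was 2.75 (adjusted p = 0.000697 by edgeR). ALAS2 in the letter-named 20 µM library was at 145 CPM, with no digit-named library at that dose. PPOX (0.71) and the iron carrier SLC25A37 (0.67) were the other 2, and both lost their call without control 1, 2 or 3. ALAS2 and CD36 are the heme and red cell genes whose difference was largest in each direction among those with a promoter in the table used here, so the 250 bases before each start are shown (RefSeq, GRCh38.p14, 5′ to 3′ along the gene). Capitals mark AGATAA on either strand (TTATCT when read on the opposite strand), a form of the GATA motif.
ALAS2, chrX:55030978-55031227, minus strand: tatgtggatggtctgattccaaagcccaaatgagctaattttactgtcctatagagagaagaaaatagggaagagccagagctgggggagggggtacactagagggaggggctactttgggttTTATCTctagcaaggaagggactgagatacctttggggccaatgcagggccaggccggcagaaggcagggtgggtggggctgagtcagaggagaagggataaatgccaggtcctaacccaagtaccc
CD36, chr7:80601957-80602206, plus strand: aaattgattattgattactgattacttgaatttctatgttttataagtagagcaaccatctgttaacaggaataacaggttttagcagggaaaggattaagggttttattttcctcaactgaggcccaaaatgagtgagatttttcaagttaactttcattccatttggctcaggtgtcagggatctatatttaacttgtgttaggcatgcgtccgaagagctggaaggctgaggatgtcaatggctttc
The ALAS2 window holds 1 match, which begins 127 bases before the start, and the CD36 window holds 0. The CD36 window lies inside the annotated span of the gene (chr7:80369575-80679277), and which start these cells use was not tested. A match in these 250 bases is held by 9.37% of all RefSeq promoters given, against 4.61% of those of tested genes, 24 of 402 (5.97%) of those called higher and 6 of 147 (4.08%) of those called lower. Both windows are poor in CG, with 1 and 2 CG pairs. Counted over 300 bases around the start, the CG content was under 0.6 of that expected from base composition for 33.8% of the higher genes with a promoter (136 of 402), 19.0% of the lower ones (28 of 147) and 19.7% of all tested genes (2065 of 10495). Within genes of 4 log2 CPM or more, 5.47% of the 677 CG-poor and 2.01% of the 5876 CG-rich promoters belonged to genes called higher, and 2.95% and 1.82% to genes called lower.

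**Figure D3:**
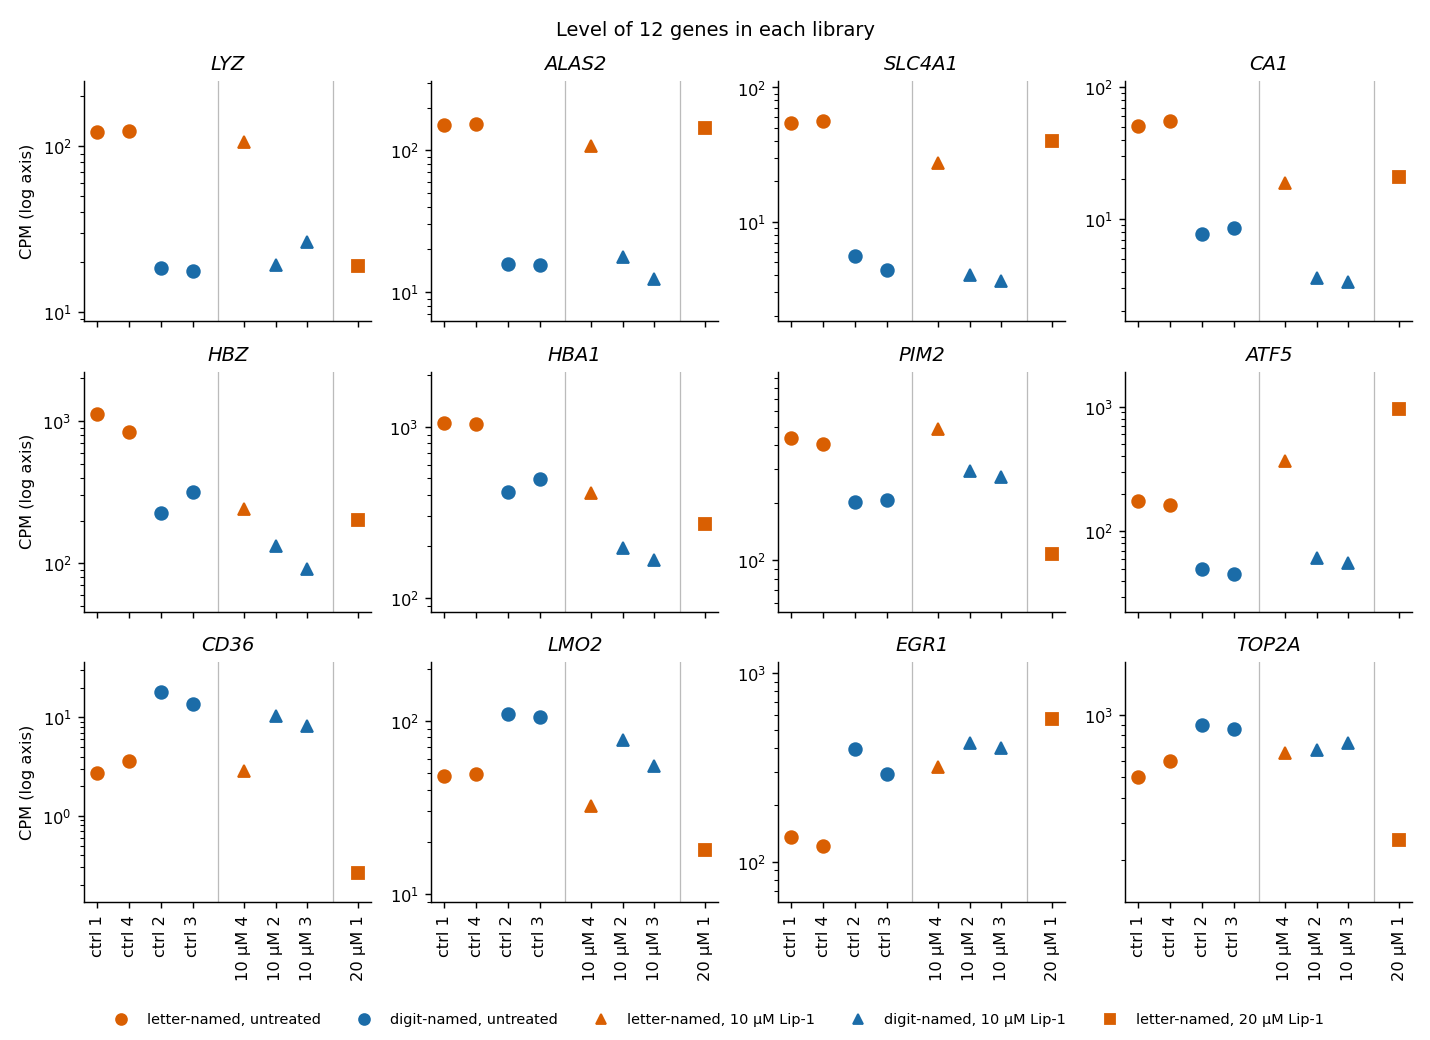
Levels of 12 genes in CPM (log axis) in each of the 8 libraries, in orange for letter-named and blue for digit-named libraries, with circles for untreated, triangles for 10 µM and squares for 20 µM Lip-1. In the 4 untreated libraries each gene splits by naming set without overlap, and at 10 µM all 12 keep their side. The 10 µM log2 differences run from -1.76 for CD36 to 2.75 for ALAS2 and SLC4A1, and the smallest in size is -0.19 for TOP2A.

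Markers of the myeloid side of K562 were led by lysozyme. LYZ, an enzyme of monocytes and granulocytes that digests bacterial walls (chr12:69348341-69354234), stood at 122 and 124 CPM in the letter-named and 18.3 and 17.5 CPM in the digit-named libraries. The log2 difference was 2.70 (SE 0.10, adjusted p = 0.0002942 by edgeR). At 10 µM LYZ was 106 CPM in the letter-named library against 19.3 and 26.2 CPM, a log2 difference of 2.15 (adjusted p = 0.002799 by edgeR). In the letter-named 20 µM library it was 18.7 CPM, a level near that of untreated digit-named cells. Of 33 monocyte and granulocyte genes 19 were tested, and 3 were called higher, 0 lower, with a median of 0.62. The others called were the integrins ITGAM (2.53 and 1.92 against 0.295 and 0.152 CPM) and ITGAX (0.920 and 0.599 CPM against 0 counts in both digit-named libraries), and each lost its call without 1 or more of controls 1, 2 and 3. MPO, ELANE, CTSG, CSF2RA and S100A9 were at 0 in all 4 libraries, and SPI1, the PU.1 factor of that lineage, did not pass the test (14.9 and 13.1 against 6.59 and 10.6 CPM, adjusted p = 0.1836 by edgeR). Without controls 2, 3, 1 and 4 the list held 2, 1, 1 and 4 higher calls, with medians of 0.57, 1.11, 0.47 and 0.85. The summed level of the list was 404 and 364 CPM against 198 and 230 CPM. Part of that sum is LYZ itself. In bulk libraries fewer cells of a type and less RNA per cell cannot be told apart.

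Megakaryocyte and platelet genes numbered 17 tested, with 3 called higher, 0 lower and a median of 0.88. They were the adhesive protein THBS1 (20.4 and 18.7 against 7.61 and 5.86 CPM, log2 difference 1.45), the ATP receptor P2RX1 (1.28) and the platelet tubulin TUBB1 (1.04). THBS1 held without any 1 library. ITGA2B, the platelet integrin subunit, was at 9.32 and 7.74 against 4.96 and 3.83 CPM and did not pass (adjusted p = 0.06456 by edgeR), and PF4, SELP and TREML1 were at 0 in all 4. The list sums were 1139 and 844 CPM against 684 and 597 CPM. Calls numbered 2, 1, 3 and 6 without controls 2, 3, 1 and 4 and 9 by DESeq2, and the median was 0.45 without control 1. Of 9 tested stem and progenitor genes 1, the vascular factor EGFL7, was called lower (-0.85). The list sums were 573 and 546 CPM against 814 and 640 CPM. GATA2 (134 and 115 against 261 and 125 CPM) and KIT (3.09 and 3.30 against 4.19 and 3.16 CPM) did not pass the test, and CD34, ERG and SPINK2 were at 0 in all 4.

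Markers of other cell types were tested in small lists. Higher calls were 16.7% of the mast cell, 11.1% of the lymphocyte and 25% of the epithelial list, and lower calls 0%, 0% and 12.5%. The middle of the mast cell and lymphocyte lists falls below 0 log2 CPM, where 1.06% of all genes were called higher and 0% lower. The middle of the epithelial list falls between 4 and 6, where 3.19% were called higher and 1.58% lower. Of 6 mast cell and basophil genes 1 was called higher, PRG2, the eosinophil major basic protein (9.14 and 9.30 against 2.47 and 2.44 CPM). PRF1, perforin, was the only call among 9 lymphocyte genes (18.2 and 15.8 against 7.63 and 6.38 CPM), and CD8A, CD8B, MS4A1, PAX5, GZMB and KLRD1 were at 0 in all 4. Of 8 epithelial genes the keratins KRT8 and KRT19 were called higher (both 0.75) and the adhesion molecule EPCAM lower (-0.83). Each of these calls except PRG2 lost its call without 1 or more of controls 1, 2 and 3. Summed levels were 146 and 127 against 265 and 128 CPM for the mast cell list, 37.3 and 34.6 against 24.2 and 20.3 CPM for the lymphocyte list and 1058 and 960.2 against 591 and 692 CPM for the epithelial list. CMA1 and CLC of the first and KRT7 and ESRP1 of the third were at 0 in all 4. The part of other cells in any result was not tested.

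Matrix and secreted genes held some of the widest gaps. FN1, fibronectin, was at 40.9 and 29.4 CPM against 2.73 and 2.92 CPM (log2 difference 3.55, SE 0.20), and COL6A3, a collagen VI chain, at 15.5 and 19.1 CPM against 1.16 and 0.544 CPM (4.27, SE 0.35). They were the 2 called of 12 tested fibroblast and matrix genes. LUM was at 0 in all 4, the median was 1.09, and the list sums were 84.3 and 59.2 CPM against 14.5 and 14.2 CPM. The median was 0.47 without control 1, 0.71 without control 3, 1.89 without control 2 and 2.00 without control 4. Both were called at 10 µM, where they differed by 2.24 and 2.72.

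Of the 12 largest higher calls with a mean of 1 log2 CPM or more, RPL17-C18orf32 and C4B_2 are given further on with genes that share reads, and 9 of the others follow here. NNMT, nicotinamide N-methyltransferase, was at 10.1 and 9.30 CPM in the letter-named against 0.320 and 0.253 CPM in the digit-named libraries (log2 difference 4.99, SE 0.26, adjusted p = 0.0008078 by edgeR), and G0S2, an inhibitor of triglyceride lipase, at 10.7 and 9.30 CPM against 0.345 and 0.304 CPM (4.86, SE 0.25). PRSS2, a trypsinogen with close copies, was at 37.7 and 36.8 CPM against 2.17 and 1.37 CPM. The same group held the mucin MUC4 (4.68), the matrix protein CCDC80 (4.29), COL6A3, the carboxypeptidase CPZ (4.16), the coronin CORO6 (3.97) and the ubiquitin ligase HECW2 (3.95). MUC4 differed within its set, at 19.9 and 4.13 CPM, and lost its call without control 2 or 3, and CCDC80 lost its call without control 1. NNMT, G0S2, PRSS2, COL6A3, CPZ, CORO6 and HECW2 held without any 1 library. At 10 µM NNMT, G0S2, PRSS2, COL6A3, CPZ and HECW2 were called higher again, with log2 differences of 2.58 to 3.91.

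The 12 largest lower calls, chosen in the same way, were led by C4B, given further on with its copies. After C4B and CD36 came CCDC85C (10.4 and 13.9 against 54.9 and 51.2 CPM, log2 difference -2.21, SE 0.17) and the mucin gene MUC19 (-1.96). LIN28A, an RNA-binding protein that blocks maturation of let-7 miRNAs, was at 9.26 and 11.6 CPM against 41.4 and 25.1 CPM (-1.75, SE 0.25). CNBP, a nucleic acid-binding zinc finger protein, was at 147 and 148 CPM against 392 and 427 CPM (-1.56, SE 0.11). IGFBP4, a carrier of insulin-like growth factors, was at 50.1 and 46.9 CPM against 127 and 148 CPM (-1.59, SE 0.12). LINGO1 (-1.65), CNRIP1 (-1.61) and the transporter SLC16A9 (-1.58) completed them together with IDI1 and EGR1, which are described with their pathways. MUC19, LINGO1, CNRIP1 and SLC16A9 each lost the call without 1 or more of controls 1, 2 and 3, and the others held. At 10 µM CCDC85C, IGFBP4 and CNBP differed by -0.48, -0.64 and -0.03 and did not pass, while LINGO1 was called lower (-2.53).

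The ATF4 response is the set of genes that cells raise when amino acids run short or proteins misfold. Of 27 tested members of the list, 11 were called higher in the letter-named libraries (40.7%) and 0 lower, and 16 did not pass, with a median of 0.51. ATF5, a factor of the same family, stood at 174 and 163 CPM against 49.97 and 45.3 CPM (log2 difference 1.74, SE 0.10, adjusted p = 0.0009707 by edgeR). DDIT4, an inhibitor of mTORC1, was at 70.4 and 71.03 CPM against 21.3 and 15.03 CPM (1.88, SE 0.17). CHAC1, which breaks down glutathione, was at 5.09 and 4.68 CPM against 0.936 and 0.885 CPM (2.34, SE 0.26), and PHGDH, the first enzyme of serine synthesis, at 47.3 and 46.4 CPM against 13.5 and 17.1 CPM (1.53, SE 0.16). The other 7 were the folate enzyme ALDH1L2, the transcription factor DDIT3 (CHOP), the cytokine GDF15, the glycine transporter SLC6A9, SESN2, ASNS and PPP1R15A, with log2 differences of 0.53 to 1.68. ATF4 itself did not pass the test (310 and 284 against 276 and 314 CPM, adjusted p = 0.724 by edgeR). Without control 2 or 3 the list held 5 and 4 calls, and ATF5, DDIT4, CHAC1 and PHGDH held without any 1 library. The list sums were 2396 and 2303 CPM against 1826 and 1875 CPM. At 10 µM 6 of the 27 were called higher and 0 lower, with a median of 0.57. Of 20 endoplasmic reticulum chaperones 3 were called lower, HSPA5 (-0.48), HSP90B1 (-0.52) and HYOU1 (-0.66), and 0 higher, and none of the 3 kept its call without control 1, 2 or 3.

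Of 35 tested genes of G2 and mitosis, 11 were called lower in the letter-named libraries (31.4%) and 0 higher, while 24 did not pass. Both letter-named libraries lay below both digit-named ones for 29, and the median was -0.37, under the -0.11 of genes above 6 log2 CPM. Of all genes in that range 2.27% were called lower, and 31.7% had both letter-named libraries below both digit-named ones. The 11 were TOP2A, the kinases BUB1, BUB1B and AURKA, the cyclin CCNB1, the kinesins KIF20A and KIF23, the spindle factor TPX2 and the centromere proteins CENPA, CENPE and CENPF. TOP2A, the topoisomerase that untangles chromosomes, was at 502 and 602 CPM against 901 and 856 CPM (log2 difference -0.75, SE 0.12, adjusted p = 0.0216 by edgeR). BUB1, a kinase of the spindle checkpoint, was at 135 and 142 CPM against 239 and 214 CPM (-0.79, SE 0.10). The list had 0 calls without control 2 and 0 without control 3, 4 without control 1 and 15 without control 4, with medians between -0.41 and -0.32. At 10 µM 0 of 35 were called and the median was -0.10. DNA replication genes gave 0 calls of 40 in either direction, with a median of 0.03.

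**Figure D4:**
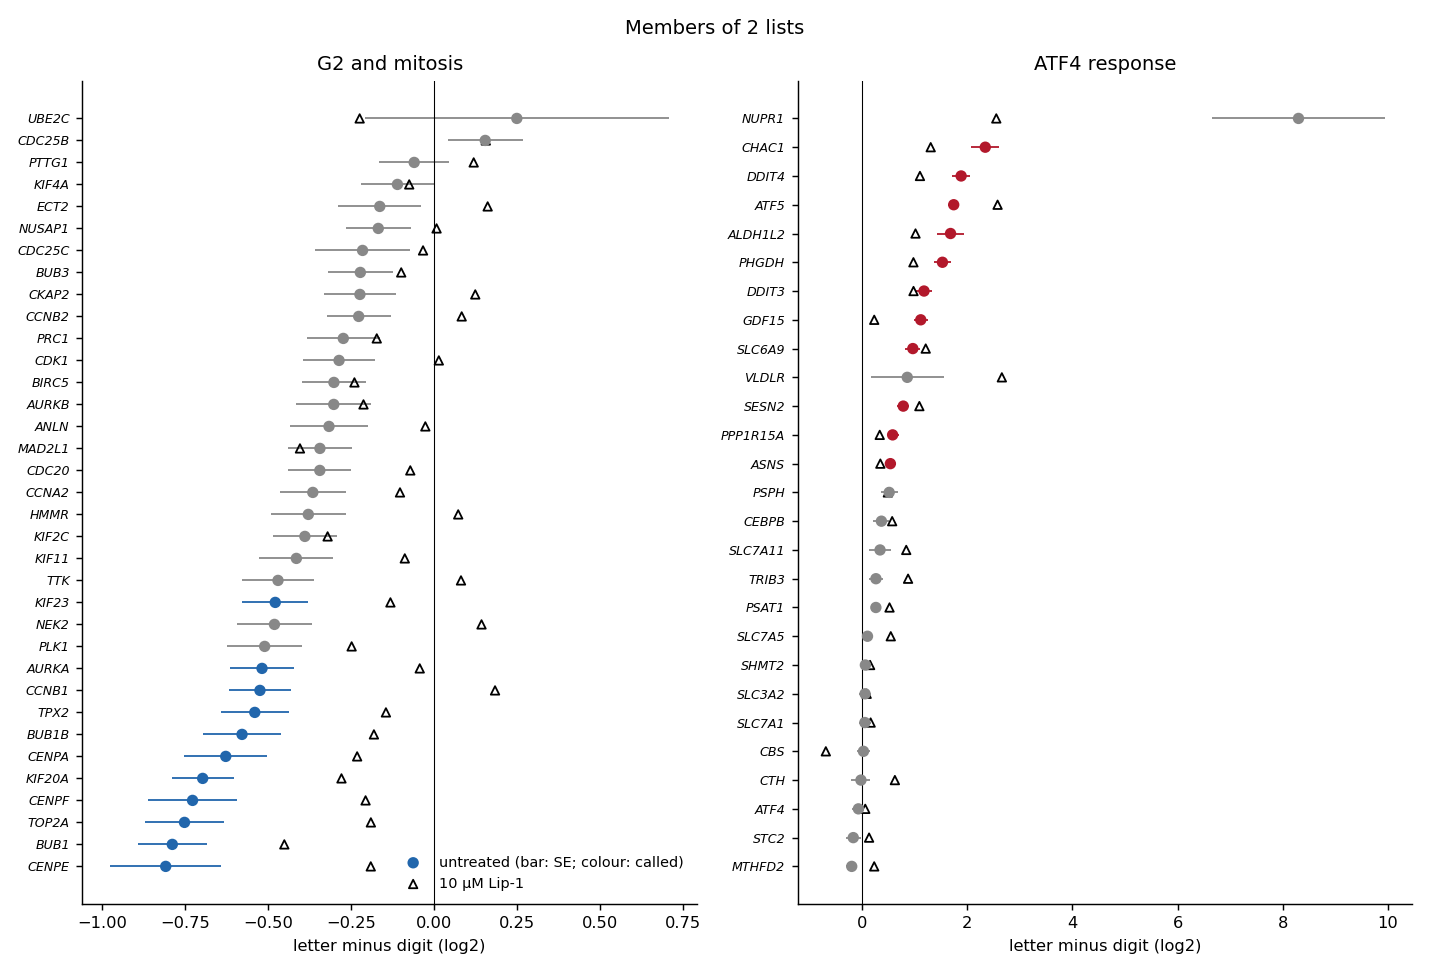
Letter minus digit differences in log2 for the 35 members of the G2 and mitosis list (left) and the 27 of the ATF4 list (right), with filled circles and SE bars for the untreated libraries (blue called lower, red called higher, grey not called) and open triangles for 10 µM Lip-1. Most of the untreated G2 and mitosis values lie left of 0 and their 10 µM values nearer to it, while the 11 red ATF4 members are right of 0 in both; NUPR1, far right, was at 0 counts in both digit-named libraries and was not called.

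Of 25 CDK inhibitors and G1 regulators 5 were called higher and 0 lower, with a median of 0.04. CDKN1A, the p21 inhibitor, was at 17.2 and 15.6 CPM against 5.05 and 5.22 CPM (log2 difference 1.59, SE 0.15), and the antiproliferative gene BTG2 at 25.9 and 26.8 CPM against 9.01 and 6.48 CPM (1.69, SE 0.18). Both held without any 1 library, while BTG1 (0.75), E2F1 (0.84) and GADD45A (0.47) did not. At 10 µM CDKN1A differed by 0.75 and BTG2 by 0.35, and neither passed. Of 43 tested replication-dependent histone genes, which are near-identical to each other in part, 4 were called lower and 0 higher, with a median of -0.47. They were H1-2, H2BC4, H2BC12 and H2BC21, at -0.90 to -0.62, and 0 of them kept the call without control 2 or 3. MYC was at 257 and 252 CPM against 300.2 and 297.5 CPM and did not pass (adjusted p = 0.1041 by edgeR).

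Targets of cytokine signalling were higher where called. Of 18 STAT5 and cytokine targets 5 were called higher and 0 lower, with a median of 0.37. SOCS1, a feedback inhibitor of JAK kinases, was at 20.0 and 18.8 CPM against 4.62 and 2.67 CPM (log2 difference 2.34, SE 0.25), and BCL6, a transcriptional repressor, differed by 2.74. PIM2, a survival kinase, was at 435 and 405 CPM against 201 and 208 CPM (0.96, SE 0.10). SOCS2 (0.48) and BCL2L1 (0.64) were the other 2. SOCS1 and BCL6 held without any 1 library, PIM2 was lost without control 2, and SOCS2 and BCL2L1 were lost without control 1, 2 or 3. SOCS1, BCL6 and PIM2 were called at 10 µM too.

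Early response genes split. Of 28 immediate early genes 4 were called higher, KLF4 (2.70), FOSL2 (1.90), ATF3 (1.35) and JUN (1.20), and 3 lower, EGR1, JUNB (-0.62) and IER2 (-0.55). EGR1, a zinc finger factor induced by growth signals, was at 135 and 122 CPM against 395 and 292 CPM (log2 difference -1.50, SE 0.15, adjusted p = 0.004562 by edgeR). KLF4 and EGR1 held without any 1 library. Of 19 NF-kB and inflammatory genes TNFAIP3 (1.71) and ICAM1 (0.66) were called higher and 0 lower, and CXCL8, at 2.40 and 1.99 against 1.10 and 0.847 CPM, did not pass (adjusted p = 0.1217 by edgeR). Higher calls were 14.3% of the immediate early and 10.5% of the NF-kB list, and lower calls 10.7% and 0%. Of all genes of 2 to 4 log2 CPM, where the middle of both lists falls, 10.2% were called higher and 0.976% lower.

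Of 26 tested interferon-stimulated genes, 4 were called higher (15.4%) and 1 lower (3.85%), and both letter-named libraries lay above both digit-named ones for 22. The list's median was 1.04, beside 0.17 for all genes of 2 to 4 log2 CPM, where the list's middle falls. Of all genes in that range 10.2% were called higher and 0.976% lower, and 51.4% had both letter-named libraries above both digit-named ones. OAS3, which makes the activator of RNase L, was at 10.2 and 9.69 CPM against 1.88 and 1.58 CPM (log2 difference 2.44, SE 0.20) and held without any 1 library. CMPK2 (1.19), USP18 (1.04) and IRF1 (0.87) were also higher. The lower 1 was IFITM1, a membrane barrier to viruses, at 260 and 236 CPM against 338 and 362 CPM (-0.58). Summed levels overlapped, at 693 and 641 CPM against 639 and 657 CPM. Without 1 library the list held 1 higher call (without control 2 or control 3), 2 (without control 1) and 9 (without control 4). At 10 µM 7 of the list were called higher and 0 lower. Of 10 tested HLA and antigen presentation genes 0 were called by edgeR, 2 by DESeq2 and 4 by edgeR without control 4, and HLA-C stood at 3.93 CPM in control 1 against 0.294, 0.123 and 0.101 CPM in controls 4, 2 and 3.

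Lipid and sterol genes gave calls in both directions. Of 25 cholesterol synthesis genes 3 were lower (12%) and 1 higher (4%), with a median of -0.15, and 6 had a positive difference. The middle of the cholesterol, fatty acid and NRF2 lists falls above 6 log2 CPM. Of all genes there 2.27% were called lower and 1.74% higher, with a median of -0.11. IDI1, which isomerises a building block of sterols, was at 29.7 and 32.02 CPM against 100.2 and 89.2 CPM (log2 difference -1.70, SE 0.11, adjusted p = 0.001159 by edgeR). It held without any 1 library, but at 10 µM the digit-named libraries themselves stood at 98.1 and 333 CPM beside 294 CPM in the letter-named one. INSIG1 (-0.51) was also lower and TM7SF2 (1.21) was higher. In the fatty acid list of 18 tested, ACACB was higher (1.59) and the malic enzyme ME1 lower (-1.14), each 5.56%. The list's median was -0.22. Both letter-named libraries lay below both digit-named ones for 10 of the 18 and above for 5. Of all genes above 6 log2 CPM these shares were 31.7% and 24.5%. Of 23 NRF2 targets the ferritin heavy chain FTH1 (0.50) and SQSTM1 (0.47) were higher (8.7%) and ME1 lower (4.35%).

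Surface proteins included CD24, a small glycosylated anchor protein, at 28.8 and 29.7 CPM in the letter-named against 1.19 and 2.54 CPM in the digit-named libraries (log2 difference 3.88, SE 0.35), and at 31.9 against 2.31 and 2.18 CPM at 10 µM (3.75). CD24 was the largest of 4 higher calls among 27 integrins and adhesion genes, with SELPLG (1.12), ICAM1 and CD63 (0.46), and 0 were lower. These 4 are 14.8% of the list, beside 10.2% of all genes of 2 to 4 log2 CPM. The list held 1 call without control 2 or control 3, 2 without control 1 and 10 without control 4. Of 14 drug transporters ABCG2, which exports drugs and porphyrins, was at 8.54 and 9.86 CPM against 2.23 and 2.25 CPM (1.96, SE 0.20) and was called at 10 µM as well (2.27). ABCA2 was higher (0.69) and ABCC5 lower (-0.55). SLC30A10, a manganese exporter, was the 1 call of 8 tested metallothionein and zinc genes (18.1 and 16.9 against 4.69 and 4.28 CPM).

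Among lists of the basic machinery of the cell, ribosomal proteins gave 0 calls of 64 (median -0.11) and oxidative phosphorylation 0 of 44 (-0.04). Ribosome biogenesis had 1 lower call of 36 (GAR1, -0.52), 2.78% of the list, and a median of -0.24. Both letter-named libraries lay below both digit-named ones for 20 of its 36 genes. All 3 lists fall above 6 log2 CPM. There 1.74% of all genes were called higher and 2.27% lower, and for 31.7% both letter-named libraries lay below. HOX genes gave 0 calls of 18 and cancer-testis genes 0 of 20. Of all genes of 2 to 4 log2 CPM, where the middle of both lists falls, 10.2% were called higher and 0.976% lower. Of 3 tested protocadherins 0 were called. Of lists not yet described, hypoxia and glycolysis genes had 2 higher (ENO2 and BNIP3L) and 2 lower (HK2 and SLC2A3) of 34, each 5.88%. The p53 targets had 3 higher of 17, 17.6% (CDKN1A, SESN2 and GDF15, all listed above), and 0 lower. Of all genes of 4 to 6 log2 CPM, where the middle of both lists falls, 3.19% were called higher and 1.58% lower. Heat shock proteins had 2 lower of 19 (HSPA8 and HSPH1), 10.5%, beside 2.27% of all genes above 6 log2 CPM. TGF-beta targets had 1 higher of 13 (INHBE), 7.69%. Wnt and Notch targets had 1 higher (LGR4) and 1 lower (LEF1) of 15, each 6.67%. The middle of these last lists falls between 2 and 4, as for the HOX list. A gene that misses the threshold is not thereby shown to be equal between the sets.

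**Figure D5:**
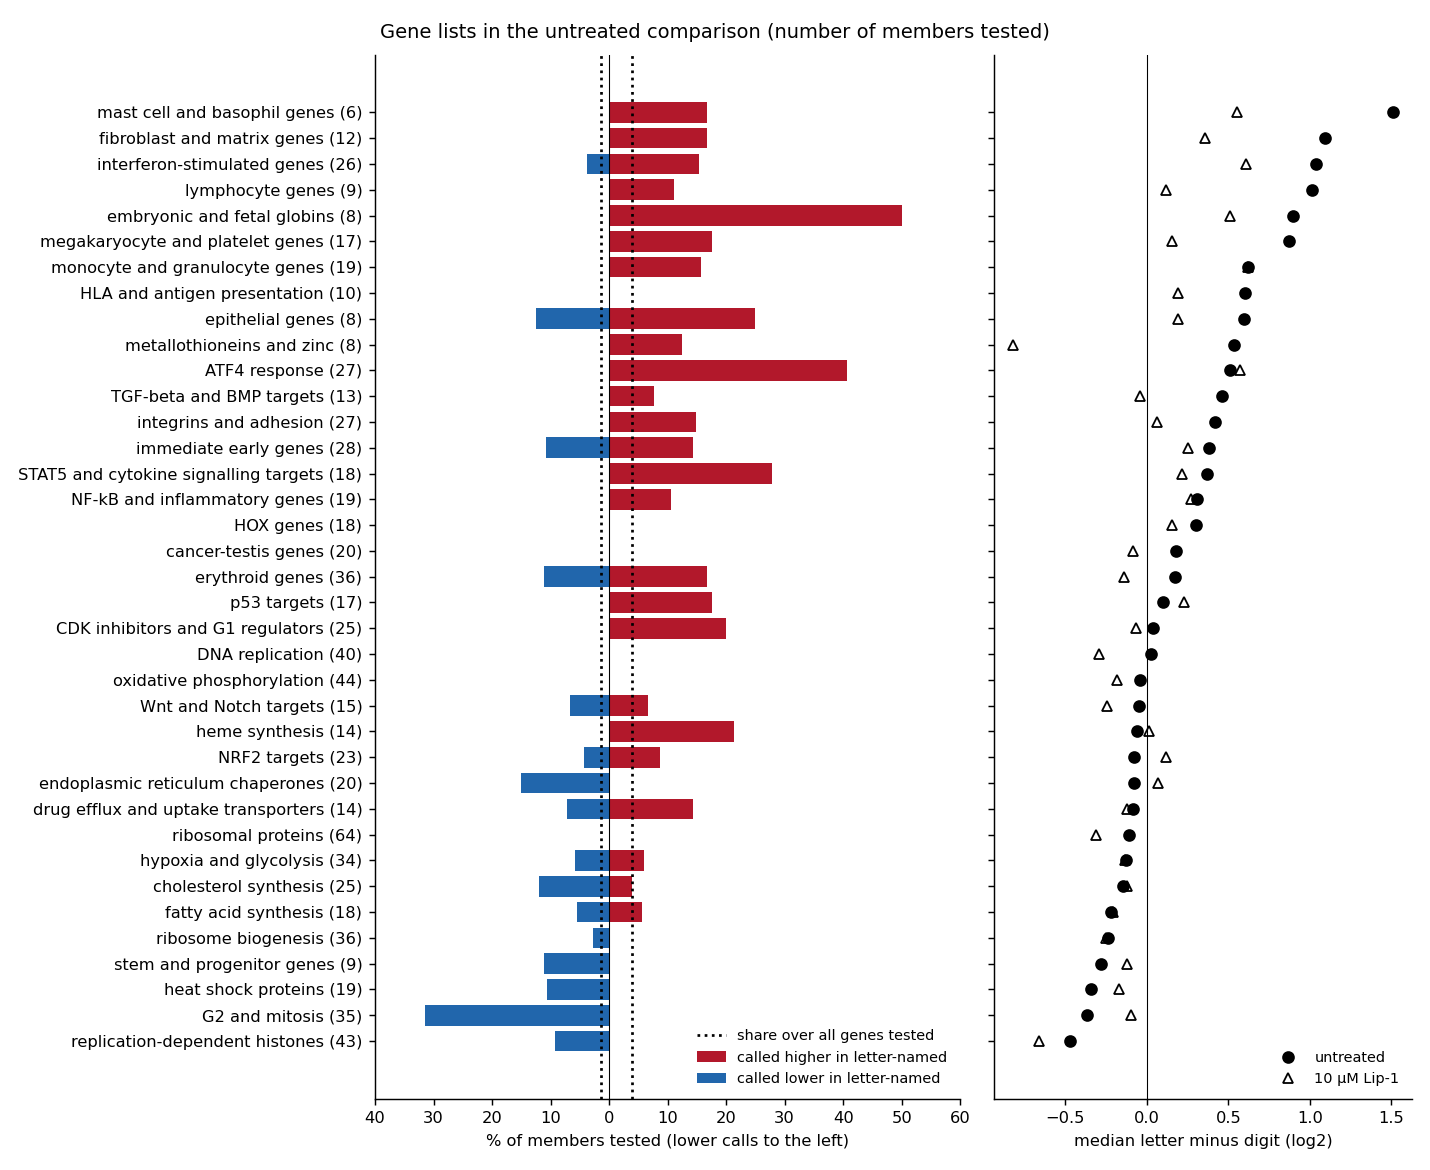
For each list with at least 5 members tested (number in brackets), the left panel gives the percentage of members called higher (red, right) or lower (blue, left) in the untreated comparison, with dotted lines at 3.9% and 1.35% for all genes tested, and the right panel the median letter minus digit difference in log2 for untreated (circles) and 10 µM (triangles) libraries. Globins (50%) and the ATF4 list (40.7%) have the longest red bars and G2 and mitosis (31.4%) the longest blue bar. The dotted lines take genes of all levels together, while 10.2% of genes of 2 to 4 log2 CPM were called higher.

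Some of the most extreme values concern genes whose reads overlap or nearly match another gene, and these are uncertain. Among genes at 1 CPM or more in both libraries of 1 set and 0.1 CPM or less in both of the other, 11 were found in the letter-named set and 1 in the digit-named set. The read-through gene RPL17-C18orf32 was at 11.6 and 6.06 CPM against 0 counts in both digit-named libraries, 233-fold higher over a floor of 3 counts per library. That floor takes 1 count as 1 read, which low values spaced by about 4 leave unsure, so folds over it are not sure minimums. RPL17 itself was at 830 and 753 against 747 and 727 CPM and did not pass the test (adjusted p = 0.9185 by edgeR). The read-through DUS4L-BCAP29 was at 19.9 and 19.7 against 1.45 and 2.15 CPM while BCAP29 was at 52.8 and 59.4 against 63.3 and 58.7 CPM. The near-identical complement genes exchanged places, with C4A (4.14 and 3.31 CPM) and C4B_2 (4.97 and 4.07 CPM) at 0 in the digit-named libraries and C4B (4.31 and 4.81 CPM) at 0 in the letter-named ones. At 10 µM the exchange ran the other way, with C4B at 13.5 CPM and C4A and C4B_2 at 0 in the letter-named library. Summed over the 3, levels were 9.12 and 7.38 CPM against 4.31 and 4.81 CPM. Of the rest, VTN, vitronectin, was at 2.19 and 1.83 against 0.0616 and 0.0379 CPM and was called at 10 µM too (5.28). B3GNT6 and ZNF362 were 59.6-fold and 37.8-fold higher over the same floor.

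Position along the genome showed little. The largest median of any chromosome was 0.146 in size, on chromosome 19, and the largest was 0.0673 without control 1 and 0.208 without control 4. Of 286 stretches of 10 Mb with at least 10 genes, 3 had a median of 0.3 or more in size, on chromosomes 22 (50 to 60 Mb, 0.52 over 26 genes), 6 (30 to 40 Mb, 0.39 over 152 genes) and 8 (0 to 10 Mb, 0.31 over 15 genes). The number was 0 without control 1, 8 without control 4, 7 without control 2 and 5 without control 3.

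Whether the letter minus digit difference itself changed with 10 µM Lip-1 was tested as an interaction. It was called for 7 of 14857 genes, 0.0471%, and 695 had an unadjusted p under 0.05. DESeq2 called 71. With the replicate number as a block, which takes same-numbered control and treated libraries as pairs, 119 were called, 7 of them the same genes.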

How the data were processed

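RNA of 8 K562 libraries was measured, and the 4 untreated ones were compared. RNA was prepared with Trizol, depleted of ribosomal RNA by biotin probes and primed at random, per the labels' protocols. The authors deposited a count for every gene in each library, as whole numbers, per the file headers. The tools named, without their roles, are bcl2fastq 2.0, StringTie, HISAT2, limma and DESeq2, and the build is hg38, per the submitters' processing notes. Low values are spaced by about 4, so 1 count need not equal 1 read. Floors cover counting error only, take 1 count as 1 read and may be too low. The 9 lines without a gene name, which were left out, hold no gene, and 19447 symbols remained. Counts were tested in R 4.3.3 with edgeR 4.0.16 (filterByExpr, TMM, glmQLFit, glmQLFTest, two-sided, Benjamini-Hochberg, 0.05). CPM is the count per 1000000 of the library total, and the SE of a log2 difference is its size over the square root of F. DESeq2 1.42.0, limma-voom 3.58.1, other filters and scalings, and fits without 1 library were alternatives. Dividing counts by 4, thinning and a term for the low count pattern were chosen after seeing the data. The script was tested on simulated data of 13080 genes. It recovered 62 of 100 changes of 1 in log2 and 85 of 100 changes of 2, and called 19 unchanged genes.

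The letter-named and digit-named controls share no replicate number. Control and treated libraries do. Their deviations from the mean of all controls or of all treated libraries correlated at 0.452, 0.252, 0.379 and 0.267 for numbers 1 to 4. Those means span both naming sets, so the naming difference is part of these values, and they do not show that the numbers pair samples.

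The comparison and the 38 gene lists were chosen with earlier results of these data known. Named genes are the 12 largest called differences in each direction (mean log2 CPM of 1 or more, sets not overlapping), 21 fixed genes, from each list the 2 genes of smallest p, and the 8 genes highest in 1 set and absent from the other, 118 in all. Other called members of lists, and overlapping partners, were named after their values were seen. Gene coordinates come from GENCODE 29 (hg38), which held 19029 of the symbols, and promoters from RefSeq (GRCh38.p14, 250 bases before to 50 after a start). Values of a few named genes are not reported here.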

Additional observations from a re-analysis of the deposited data

Results flagged for a closer look

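For 7 genes the letter minus digit difference itself differed between 10 µM and untreated libraries (edgeR's quasi-likelihood interaction test with Benjamini-Hochberg adjustment). JUND, an AP-1 factor, stood at 2.48 CPM in the letter-named 10 µM library against 346 and 278 CPM in the digit-named ones, and at 217 and 185 CPM against 161 and 140.9 CPM untreated, with an interaction of -7.36 in log2 (adjusted p = 4.2e-05). It was at 451 CPM in the letter-named 20 µM library, and the 10 µM value rests on 1 library. FAM217B stood at 44.9 CPM in the letter-named 10 µM library against 13.8 and 10.9 CPM, and at 9.26 and 8.75 against 11.3 and 12.1 CPM untreated, an interaction of 2.27 (adjusted p = 0.0397). The near-identical complement genes C4B, C4B_2 and C4A exchanged their levels between sets and doses (adjusted p = 0.00116, 0.00137 and 0.00427), and LOC110384692 did so with them, at 1.90 and 1.76 against 0 CPM untreated and 0 against 2.21 and 1.87 CPM at 10 µM (adjusted p = 0.00467). RPL17-C18orf32 was at 0 only in the untreated digit-named libraries (adjusted p = 0.00839). The cause of these values was not tested.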

How the results depend on the processing

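The 686 untreated calls became 2053 with DESeq2 (1196 higher and 857 lower), 1486 with no filter on low counts and 369 when a 2-fold difference was also asked for, and ran from 204 to 1328 when 1 library was left out. They were 649 to 902 under the other 8 alternatives. The 165 calls at 10 µM became 638 with DESeq2 and ran from 37 to 59 without 1 digit-named 10 µM library. The 7 interaction calls became 71 with DESeq2, 119 with a replicate block, and ran from 4 to 6 without 1 digit-named 10 µM library. For the untreated comparison no paired analysis was possible because the letter-named and digit-named libraries share no replicate number. Of 84 named genes called, 48, 49, 66 and 83 were still called without controls 2, 3, 1 and 4, 44 in every 1 of these fits, and 0 changed direction under any alternative. With 2 libraries a set, and a count unit that may not be a read, genes under about 1 CPM are poorly resolved, and the single letter-named 10 µM library has no spread of its own.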

Other observations

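Among called genes outside the lists and the named set, a few well-known ones were picked after their values were seen. Higher in the letter-named libraries were COL15A1, a basement membrane collagen (75.8 and 72.9 CPM in controls 1 and 4 against 11.6 and 8.40 CPM in controls 2 and 3), the lipid carrier APOE (104 and 89.8 against 9.54 and 14.2 CPM) and DLK1, a Notch-related surface protein (492 and 415 against 140.6 and 141.5 CPM). The water channel AQP1 of the red cell was at 24.7 and 22.7 against 5.39 and 5.35 CPM, and the hypoxia factor EPAS1 at 42.5 and 44.7 against 14.2 and 14.7 CPM. Lower were DNMT3B, a DNA methyltransferase (68.3 and 63.2 against 148 and 134 CPM), and catalase, CAT (125 and 128 against 219 and 219 CPM). All but CAT were called in each fit that left out 1 library, and CAT lost its call without control 2 or 3. COL15A1, APOE, DLK1, DNMT3B and CAT were called at 10 µM in the same direction, while AQP1 and EPAS1 were not (adjusted p = 0.323 and 0.315 by edgeR's quasi-likelihood test). The deposited levels of BCR and ABL1, the partners of the fusion in this line, were 129 and 143 against 143 and 128 CPM and 269 and 261 against 247 and 242 CPM, and neither passed the test.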
